A study of Mus musculus with 18 samples.

Results

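The comparison described here is that of the Oct4VP2 line with the line it was made from, ZHBTc4, at 3 matched times. It comprised 12 of the 18 arrays of the series, chosen by their sample titles, with 2 arrays in each of 6 groups. ZHBTc4 is a mouse embryonic stem cell line of strain 129/Ola, listed as a gene knock-in, in which a transgene that tetracycline can shut off supplies oct4. To make Oct4VP2, ZHBTc4 cells kept in tetracycline, so that this transgene was silent, received an oct4-vp16 construct by electroporation. The construct integrated at random, and the cells were selected and cultured with puromycin at 2 ug/ml and tetracycline. The labels give no tetracycline and no puromycin for ZHBTc4, but do not say that it was grown without them. The lines thus differ in the form of Oct4 they make and may differ in both agents. Oct4VP2 was plated at 250000 cells a flask and ZHBTc4 at 200000. RNA was taken after 24 h in leukaemia inhibitory factor (LIF), or 48 h or 120 h after LIF was withdrawn, so each comparison sets the lines side by side at one time and LIF state. The series describes the 2 replicates of a line as independent clones.

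Oct4, the product of Pou5f1, is a POU-domain transcription factor that embryonic stem cells need to stay pluripotent. LIF acts through Stat3 to keep mouse embryonic stem cells undifferentiated, and its withdrawal lets them differentiate. VP16 is a viral protein whose activation domain strongly recruits the transcription machinery, so joining it to a DNA-binding protein gives an activator of that protein's targets. In ZHBTc4 both endogenous Pou5f1 alleles are disrupted, and tetracycline removes Oct4 from these cells. The probes carry no gene names in the files, so the level of Oct4 and the markers of embryonic stem cells or of other cell types were not examined here, and results are given by probe. In bulk RNA, fewer cells of a type and less RNA per cell cannot be told apart.

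Each array carried 60-base probes and was hybridised with the RNA of 1 culture, labelled with Cy3, and a pooled mouse reference RNA, labelled with Cy5. Each value is the log2 of the processed Cy3 signal divided by that of Cy5, and a difference is the Oct4VP2 mean minus the ZHBTc4 mean. Between 67% and 74.1% of all probes were well above background in Cy3 on the 6 Oct4VP2 arrays, and between 62.8% and 66.1% on the 6 ZHBTc4 arrays. The arrays of a pair correlated with r between 0.946 and 0.979 across probes, which are not independent replicates. All Oct4VP2 arrays were scanned in the first of 2 sessions, as were the ZHBTc4 arrays of replicate 1 without LIF. The other ZHBTc4 arrays, including both at 24 h, were scanned in the second session, and the lines never shared a slide. At 24 h, line and session therefore cannot be told apart. The precision of every difference is limited by 2 arrays a group. Run on Cy5 alone, where all arrays carried one RNA, the test called 162 probes (0.511%) at 24 h, 104 (0.328%) at 48 h and 433 (1.36%) at 120 h.

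The sequences of the 11 probes with the largest called differences, 2 in each direction at each time, are shown because they are the only identity the files give these transcripts.
Z00028862-1: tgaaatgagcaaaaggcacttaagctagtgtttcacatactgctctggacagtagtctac
Z00030951-1: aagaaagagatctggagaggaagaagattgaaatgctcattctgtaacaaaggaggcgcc
Z00063386-1: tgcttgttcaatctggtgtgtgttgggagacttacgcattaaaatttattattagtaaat
Z00031143-1: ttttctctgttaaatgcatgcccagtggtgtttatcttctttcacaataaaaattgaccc
Z00077577-1: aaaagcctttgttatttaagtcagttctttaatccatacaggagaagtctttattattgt
Z00042672-1: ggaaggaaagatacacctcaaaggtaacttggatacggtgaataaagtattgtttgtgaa
Z00008056-1: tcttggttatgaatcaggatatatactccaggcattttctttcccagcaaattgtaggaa
Z00018358-1: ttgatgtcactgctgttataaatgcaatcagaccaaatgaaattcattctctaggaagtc
Z00045087-1: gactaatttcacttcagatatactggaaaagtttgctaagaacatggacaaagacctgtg
Z00073020-1: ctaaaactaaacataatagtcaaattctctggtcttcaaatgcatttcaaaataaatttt
Z00061870-1: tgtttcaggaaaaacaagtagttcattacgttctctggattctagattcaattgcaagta
Written 5′ to 3′ as deposited, these probes held between 23.3% and 43.3% G and C. One of them, Z00030951-1, led at both 24 h and 48 h.

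**Figure D1:**
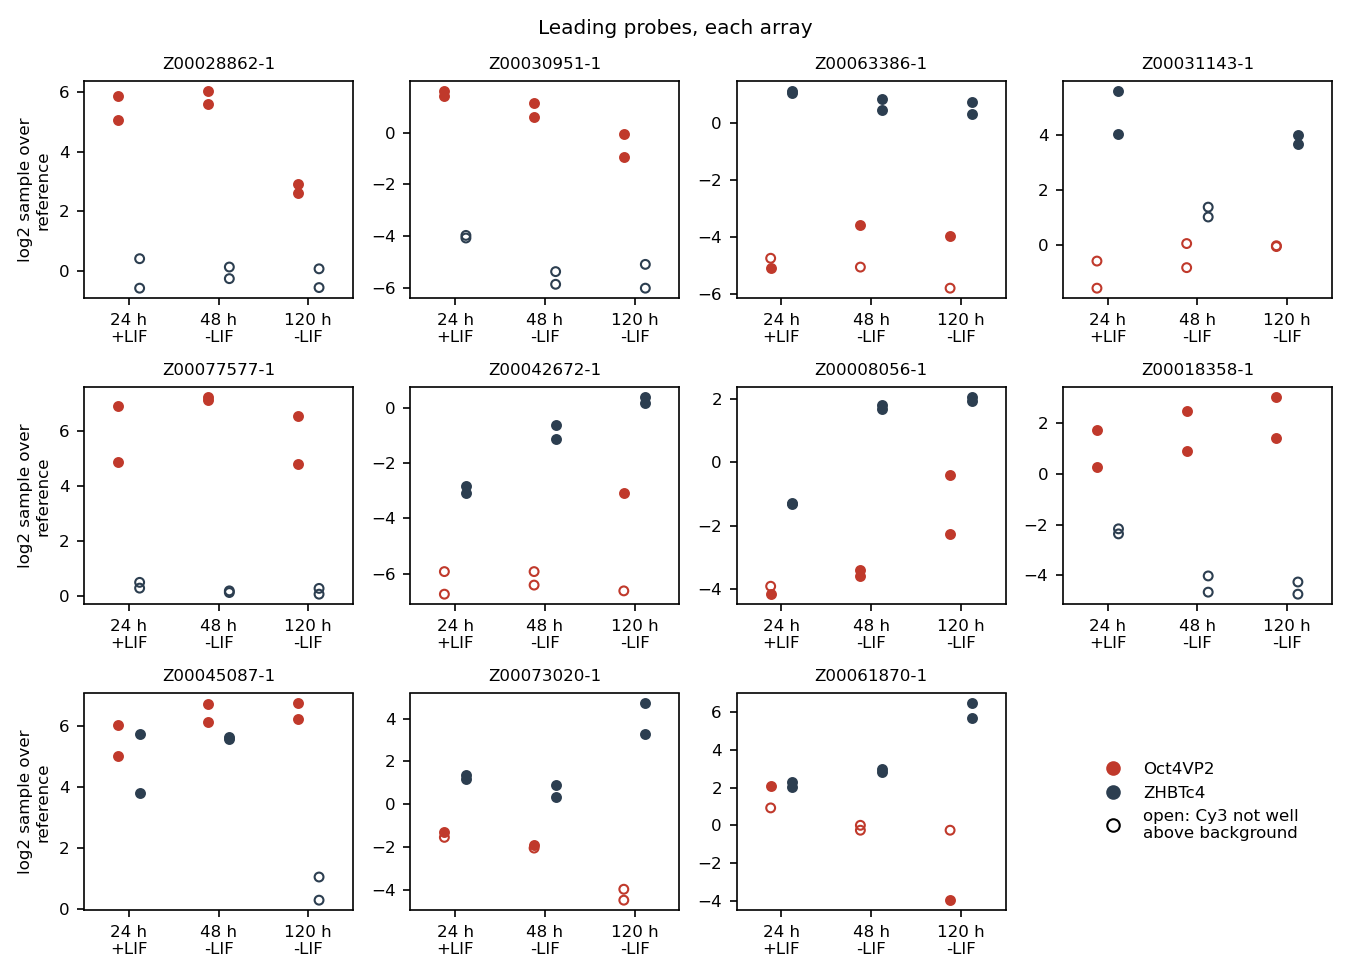
Log2 ratio of sample over reference (vertical axis) for the 11 leading probes on the 6 Oct4VP2 arrays (red) and 6 ZHBTc4 arrays (dark) at each time; each point is 1 array, and open points are arrays on which Cy3 was not well above background. In 4 probes all 6 Oct4VP2 points are filled and all 6 ZHBTc4 points are open.

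With LIF present, 24 h after plating, the lines already differed: 2339 of 31727 tested probes (7.37%) passed an adjusted p of 0.05 and a 2-fold difference, 1355 higher (4.27%) and 984 lower (3.1%) in Oct4VP2. The median difference of the probes that were higher was 1.45, and of those that were lower -1.71. The fitted log2 difference was 3 or more for 59 of the higher probes and -3 or less for 149 of the lower ones. Such counts include probes at background in one line, whose fitted difference is not a bound on the fold. Among the probes that were higher, Z00028862-1 read 5.88 and 5.08 in Oct4VP2 against -0.58 and 0.41 in ZHBTc4. The arrays did not overlap, and the difference was 5.57 (SE 0.442, adjusted p = 7.9e-05). Because neither ZHBTc4 array was well above background, the measurable fold was estimated as at least 7.51-fold. Such estimates set the bright group's mean Cy3 level against the dimmest level that counted as well above background for any probe on the dim arrays. A probe's own limit can lie above that level, so "at least" is not a strict bound in this text. These estimates were computed after loess and a scaling between arrays, and carry no error. They hold for that scaling only and do not bound the smaller differences after normexp and loess given below. Z00030951-1 read 1.60 and 1.42 in Oct4VP2 against -3.97 and -4.07 in ZHBTc4, a difference of 5.53 (SE 0.573, adjusted p = 0.00032) and at least 35.8-fold. In the other direction, Z00063386-1 read -5.10 and -4.75 in Oct4VP2 against 1.04 and 1.11 in ZHBTc4, a difference of -6.00 (SE 0.591, adjusted p = 0.00027), with 1 of the 2 Oct4VP2 arrays above background. Z00031143-1 read -1.58 and -0.59 against 5.61 and 4.05, a difference of -5.92 (SE 0.483, adjusted p = 8.8e-05) and at least 7.2-fold. For Z00028862-1 and Z00031143-1 the reference was not well above background on any of the 18 arrays, so their ratios rest on a dim denominator.

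Which direction prevailed at 24 h depended on the scaling. Of the called probes, 57.9% were higher in Oct4VP2 as processed, 44.2% after loess on the processed signals (942 higher and 1190 lower), and 35.4% after normexp and loess (379 and 693). Calls numbered 888 without ZHBTc4 24 h replicate 1 and 1158 without ZHBTc4 24 h replicate 2. With scan session as a block, whose effect only ZHBTc4 at 48 h and 120 h can estimate, 1407 probes were called, 767 of them among the 2339. Each of the 4 leading probes was called under every alternative that could test it, but normexp and loess made all 4 differences smaller: 1.44 for Z00028862-1, 2.82 for Z00030951-1, -3.44 for Z00063386-1 and -1.1 for Z00031143-1. The normexp setting adds an offset of 50 to both channels, which by itself shrinks the log ratios of dim probes. The part of session in the 24 h differences was not tested apart from the line.

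After 48 h without LIF, 3434 probes (10.8%) differed, 1907 higher (6.01%) and 1527 lower (4.81%) in Oct4VP2. Fitted differences beyond 3 on the log2 scale numbered 164 higher and 112 lower. Z00077577-1 was read at 7.13 and 7.23 in Oct4VP2 and at 0.13 and 0.19 in ZHBTc4, where neither array was well above background. Its difference was 7.02 (SE 0.676, adjusted p = 0.00011), at least 29.6-fold, and its reference signal was at background on all 18 arrays. Z00030951-1, already high at 24 h, read 1.13 and 0.60 against -5.37 and -5.86, a difference of 6.48 (SE 0.573, adjusted p = 7.1e-05) and at least 25.7-fold. Among the probes that were lower, Z00042672-1 read -5.93 and -6.42 against -1.1 and -0.60, a difference of -5.32 (SE 0.922, adjusted p = 0.0026) and at least 9.78-fold. Z00008056-1 was above background on all 4 arrays and read -3.41 and -3.58 against 1.67 and 1.80, a difference of -5.23 (SE 0.541, adjusted p = 0.00017). In ZHBTc4 both of these probes stood higher at 48 h than at 24 h, from -2.93 to -0.85 for Z00042672-1 and from -1.31 to 1.73 for Z00008056-1. Within the first scan session alone, 2807 probes were called at 48 h, 1552 higher and 1255 lower. That fit has 1 ZHBTc4 array at each time, which is assumed to vary like the other groups. Normexp and loess gave 1868 calls in place of 3434, and differences of 2.79 for Z00077577-1, 2.36 for Z00030951-1, -1.5 for Z00042672-1 and -3.16 for Z00008056-1, all still called.

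After 120 h without LIF the lines were furthest apart, with 5461 called probes (17.2%), 2954 higher (9.31%) and 2507 lower (7.9%) in Oct4VP2. Fitted differences beyond 3 on the log2 scale numbered 362 higher and 323 lower, and the spread (SD) of the difference over all tested probes was 1.03, against 0.755 at 24 h and 0.821 at 48 h. Z00018358-1 read 1.42 and 3.03 in Oct4VP2 against -4.74 and -4.26 in ZHBTc4, a difference of 6.72 (SE 0.612, adjusted p = 2.3e-05) and at least 21.2-fold. Z00045087-1 read 6.23 and 6.74 against 1.04 and 0.28, a difference of 5.82 (SE 0.655, adjusted p = 8.9e-05) and at least 16-fold. Its reference signal was not well above background on any of the 18 arrays. Among the probes that were lower, Z00073020-1 read -3.96 and -4.47 in Oct4VP2 against 3.30 and 4.71 in ZHBTc4. That difference was -8.23 (SE 0.599, adjusted p = 6.6e-06), at least 126-fold, with both Oct4VP2 arrays at background. Z00061870-1 read -0.25 and -3.95 against 5.71 and 6.46, a difference of -8.19 (SE 0.931, adjusted p = 9.4e-05). The low value of Oct4VP2 replicate 2 coincided with the one array of 18 on which the reference was well above background at this probe, and from Cy3 alone the difference was -3.94. Within the first scan session alone, again with 1 ZHBTc4 array, 4352 probes were called, 2288 higher and 2064 lower. Which direction prevailed at 120 h also depended on the setting. Higher calls made up 54.1% as processed, 46.4% after normexp and loess (1467 higher and 1692 lower), and 49.1% where both channels had to be above background in both lines (2043 and 2120). After normexp and loess the leading differences were 2.41 for Z00018358-1, 1.79 for Z00045087-1, -3.67 for Z00073020-1 and -3.33 for Z00061870-1, all still called.

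The leading probes followed several courses, given here as fitted differences, whose size is not exact where a line was at background. Z00030951-1, Z00077577-1, Z00028862-1 and Z00018358-1 were well above background on all 6 Oct4VP2 arrays and on none of 6 ZHBTc4 arrays. The first 2 differed by 5.06 or more at every time, while Z00028862-1 fell from a difference of 5.87 at 48 h to 3.03 at 120 h (change -2.85, adjusted p = 0.014). The fitted difference of Z00018358-1 was 3.27 at 24 h and 6.72 at 120 h (change 3.45, adjusted p = 0.017). Its ZHBTc4 arrays were at background at both times, and its Oct4VP2 values overlapped, at 0.27 and 1.76 and then 1.42 and 3.03. A widening between the lines could therefore not be measured. Z00063386-1 stayed low in Oct4VP2 throughout, with differences of -6.00, -4.97 and -5.41. Z00045087-1 was bright in both lines at 24 h and 48 h, with differences of 0.75 and 0.83 that did not pass the test. Its 120 h difference arose with a drop in ZHBTc4, from 5.64 and 5.56 at 48 h to 1.04 and 0.28 (change of the difference from 24 h 5.07, adjusted p = 0.0039). The Oct4 line dropped too, from 5.68 and 5.62 at 48 h to 1.41 and 3.02 at 120 h. Z00061870-1 and Z00073020-1 went the other way: their ZHBTc4 values at 120 h were their highest, and the differences widened from 24 h by -7.53 (adjusted p = 0.003) and -5.55 (adjusted p = 0.0015). The change of Z00061870-1 includes Oct4VP2 120 h replicate 2, the 1 array of 18 with its reference well above background. From Cy3 alone its 120 h difference was -3.94. In the Oct4 line, which carries an oct4 construct, Z00073020-1 was also low at 120 h, at -2.55 and -4.35. Z00061870-1 read 2.98 and 2.55 there. Z00031143-1 was lower at 24 h and at 120 h, and at 48 h no array of either line was above background, so no difference could be measured there. It was above background on no array of the Oct4 line either. Neither were Z00028862-1, Z00077577-1 and Z00018358-1, while Z00030951-1 was on 1 of 6 and Z00063386-1 on all 6.

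Most called probes passed the thresholds at a single time, though a probe not called at another time may still have differed there. Of 8151 probes called at 1 time or more (25.7% of those tested), 5634 were called at 1 time, 1951 at 2 times and 566 at all 3. Of the last, 296 were higher at every time, 218 lower at every time, and 52 changed side. Neighbouring times shared more. Probes higher at both 24 h and 48 h numbered 558, which is 41.2% of the 24 h set and 29.3% of the 48 h set. Between 48 h and 120 h 992 were shared, 52% and 33.6% of the sets, and between 24 h and 120 h 403, 29.7% and 13.6%. Probes lower at both times numbered 386, 676 and 304 for the same pairs. Calls in opposite directions numbered 29 between 24 h and 48 h, 117 between 48 h and 120 h, and 184 between 24 h and 120 h. Across all tested probes, which are not independent replicates, the difference at 24 h correlated with that at 48 h with r = 0.5 and with that at 120 h with r = 0.25, and the 48 h and 120 h differences with r = 0.49. These comparisons have no array in common, though the Oct4VP2 arrays of 24 h and 48 h shared a slide and those of 120 h lay on another. Same-numbered Oct4VP2 arrays also deviated together across times, with r of 0.28, 0.18 and 0.3. Probes called in 1 direction at all times numbered 514, but 223 without ZHBTc4 24 h replicate 1, 258 without ZHBTc4 24 h replicate 2, 247 with normexp and loess, and 327 with the session block.

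**Figure D2:**
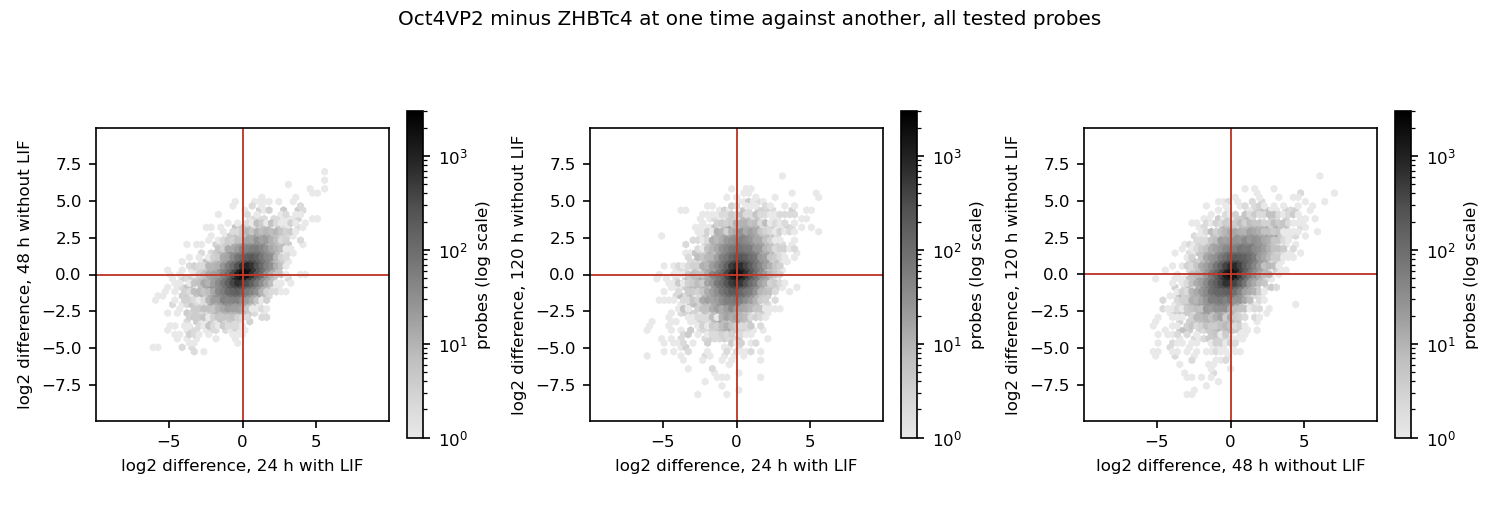
Log2 difference, Oct4VP2 minus ZHBTc4, at one time (horizontal axis) against another (vertical axis) for 31727 probes; shading is the number of probes in each hexagon on a log scale, and red lines mark 0. The cloud is tilted for 24 h against 48 h (r = 0.5) and for 48 h against 120 h (r = 0.49), and less so for 24 h against 120 h (r = 0.25).

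The change of the line difference between times was tested directly, as an interaction. From 24 h to 48 h, 662 probes (2.09%) changed their difference, 344 upwards (1.08%) and 318 downwards (1%). From 24 h to 120 h, 4683 (14.8%) did, 2222 upwards (7%) and 2461 downwards (7.76%), and from 48 h to 120 h, 2844 (8.96%), 1418 upwards (4.47%) and 1426 downwards (4.49%). The first of these counts fell when most single arrays were left out. It was 47 without ZHBTc4 24 h replicate 1, 49 without ZHBTc4 24 h replicate 2 and 73 without ZHBTc4 48 h replicate 1. It was 149 without Oct4VP2 48 h replicate 1, 165 without Oct4VP2 48 h replicate 2 and 334 without Oct4VP2 24 h replicate 2. Without Oct4VP2 24 h replicate 1 it was 505, and without ZHBTc4 48 h replicate 2 it was 680. The 48 h to 120 h count was 1798 without ZHBTc4 48 h replicate 1. After normexp and loess, 66% of the 24 h to 48 h calls were upwards, against 52% as processed.

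The levels behind these differences are given as medians over each called set, each value relative to the ZHBTc4 mean at 24 h with LIF. They describe sets chosen on the same arrays and carry no test. Probes higher at 24 h had Oct4VP2 medians of 1.43 and 1.48 in the presence of LIF, then 1.06 and 1.17 at 48 h, then 0.84 and 0.99 at 120 h. In ZHBTc4 the same probes read 0.20 and 0.07 at 48 h and 0.48 and 0.27 at 120 h. Probes lower at 24 h ran from -1.66 and -1.77 in Oct4VP2 with LIF to -0.76 and -1.11 at 120 h, while ZHBTc4 reached -0.48 and -0.38.

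The 120 h sets had another shape. Probes higher in Oct4VP2 at 120 h stood near their starting level in Oct4VP2, with medians of 0.31 and 0.30 at 24 h and 0.42 and 0.59 at 120 h, and fell in ZHBTc4 to -1.22 and -1.32. Probes lower in Oct4VP2 at 120 h read 0.07 and -0.27 in Oct4VP2 at that time and 1.61 and 1.64 in ZHBTc4. On the arrays of the Oct4 line, which carries an oct4 construct in place of oct4-vp16 and whose levels did not enter these contrasts, the medians at 120 h were -0.92 and -0.89 for the first set and 1.06 and 1.1 for the second. These lay nearer to ZHBTc4 than to Oct4VP2 on both arrays. Both arrays shared a slide with ZHBTc4 120 h replicate 1 and not with Oct4VP2 at 120 h, and the part of slide was not tested. At 48 h the set that was higher read 0.89 and 0.96 in Oct4VP2 and -0.75 and -0.66 in ZHBTc4, and the set that was lower read -0.60 and -0.62 against 0.99 and 0.85.

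**Figure D3:**
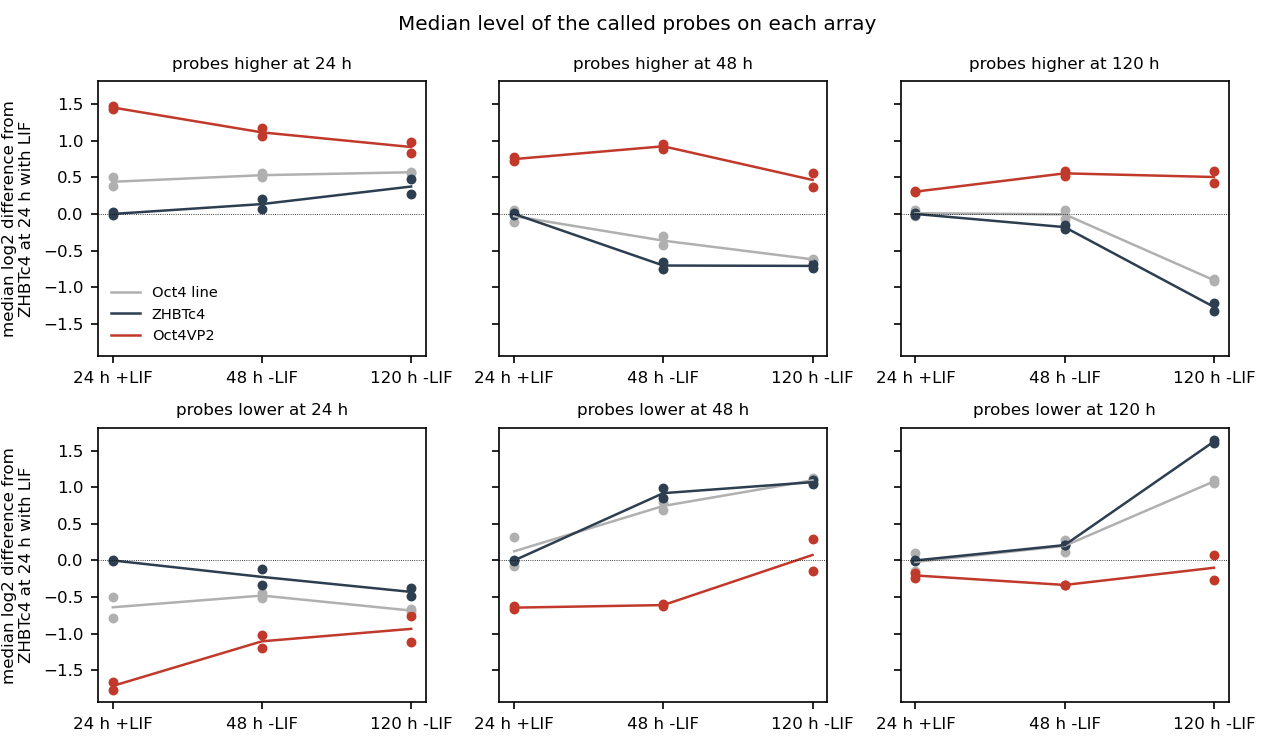
Median log2 level (vertical axis, relative to the ZHBTc4 mean at 24 h with LIF) of the probes called higher (top) or lower (bottom) in Oct4VP2 at each time, on each array of Oct4VP2 (red), ZHBTc4 (dark) and the Oct4 line (grey); points are arrays and lines join group means. In the 120 h sets the Oct4VP2 medians lie between -0.34 and 0.59 at all times, while ZHBTc4 falls to -1.32 or climbs to 1.64.

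Many differences were between a probe that could be measured in one line and one that could not. At 120 h, 2186 tested probes were well above background on both Oct4VP2 arrays and on neither ZHBTc4 array, and 174 showed the reverse. The same counts were 1336 and 141 at 24 h and 985 and 253 at 48 h. Of the first kind, 788 of the 2186 were called higher, 293 of 1336 at 24 h and 351 of 985 at 48 h. Higher calls among all tested probes were 9.31%, 4.27% and 6.01%, but these sets were chosen by detection in the line where they are high, so nothing is read from the comparison. Of the second kind, 152, 90 and 157 were called lower at 120 h, 24 h and 48 h. Detection over all tested probes also differed between the arrays of the lines. At 120 h the tested probes well above background were 93.2% to 95.9% on the Oct4VP2 arrays and 83.7% to 87% on the ZHBTc4 arrays. The lines never shared a slide, so line and slide cannot be told apart here. The part of detection in the counts was not tested. Over all 3 times, 176 probes were above background on all 6 Oct4VP2 arrays and on no ZHBTc4 array, and 5 showed the reverse. Of the 176, 66 were called at 24 h, 88 at 48 h and 82 at 120 h, and 40 in 1 direction at all 3 times. All 5 of the reverse set were called at every time. In the Oct4 line, 25 of the 176 were above background on no array, 146 on some and 5 on all 6. These sets too were chosen by detection, so nothing is read from these counts.

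Probes that share sequence give a check of one measurement by another, since they can bind the same or related transcripts. Among the tested probes, 1370 pairs shared a run of at least 20 bases on the same strand, and 2012 probes took part. When both probes of a pair were called, they went the same way in 85 pairs at 24 h, 103 at 48 h and 264 at 120 h, and opposite ways in 0, 0 and 2. In a further 89, 80 and 154 pairs only 1 probe was called. Linking such pairs gave 32 families of 4 to 25 probes, 203 probes in all, of which 7.88% were called at 24 h, 3.45% at 48 h and 22.2% at 120 h. The percentages among all tested probes were 7.37%, 10.8% and 17.2%. Families were built from sequence alone, but those named below were picked after their values were seen, and their members are not independent of one another.

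An 8-probe family was lower in Oct4VP2 at every time. It is shown by 3 members, in which capitals mark the 20 bases that 7 of the 8 hold.
Z00075784-1: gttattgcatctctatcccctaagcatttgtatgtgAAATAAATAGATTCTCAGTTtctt
Z00025464-1: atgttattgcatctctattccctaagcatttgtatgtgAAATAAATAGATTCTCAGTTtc
Z00063676-1: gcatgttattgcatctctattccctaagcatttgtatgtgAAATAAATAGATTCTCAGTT
All 8 members were called lower at 24 h, with differences from -2.34 to -1.80, 5 at 48 h and 7 at 120 h. The family medians in Oct4VP2 were -0.37 and -0.15 at 24 h, 0.54 and 0.37 at 48 h, and 0.88 and 0.43 at 120 h. In ZHBTc4 they were 1.95 and 1.82, 1.55 and 2.08, and 1.85 and 2.56. The lines did not overlap at any time. In the Oct4 line the family was also low, at -1.30 and -0.86 with LIF. The 24 h calls numbered between 5 and 8 under the alternatives, with 5 in the deposited value table, which lists 5 of the 8. The 48 h calls numbered between 2 and 8 under the alternatives, with 2 when scan session was a block.

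A 4-probe family changed sides with time, and 3 of its members share the capitals.
Z00030955-1: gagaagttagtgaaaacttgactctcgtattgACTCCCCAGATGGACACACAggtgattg
Z00030887-1: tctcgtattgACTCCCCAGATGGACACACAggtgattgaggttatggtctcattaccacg
Z00031023-1: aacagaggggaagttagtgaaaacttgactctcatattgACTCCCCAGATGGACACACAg
Z00033709-1: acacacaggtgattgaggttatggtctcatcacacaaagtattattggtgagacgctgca
At 120 h all 4 were called higher in Oct4VP2, with differences from 2.16 to 2.46. At 24 h 2 were called lower, and the median difference was -1.45. The family medians in ZHBTc4 were 2.86 and 2.82 at 24 h and 3.48 and 3.65 at 48 h, then -0.69 and -0.31 at 120 h. In Oct4VP2 they were 1.79 and 0.86, 3.44 and 2.25, and 2.44 and 1.02. Of these lines, Oct4VP2 was thus the lower at 24 h and the higher at 120 h, without overlap at either time. The Oct4 line read 3.89 and 3.45 at 24 h and 1.15 and 0.97 at 120 h, above ZHBTc4 at both times. The 24 h calls were less secure. No member was called at 24 h with the session block, with slide as a random block, with only the 12 arrays, or without Oct4VP2 24 h replicate 2, ZHBTc4 24 h replicate 1 or ZHBTc4 24 h replicate 2, and 1 was called without Oct4VP2 24 h replicate 1. At 120 h, 2 of 4 were called within the first scan session and 3 of 4 without Oct4VP2 120 h replicate 1.

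A 5-probe family differed at 24 h, shown by the 3 members that hold its commonest 20 bases, in capitals.
Z00073931-1: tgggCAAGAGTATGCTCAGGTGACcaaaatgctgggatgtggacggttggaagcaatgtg
Z00073984-1: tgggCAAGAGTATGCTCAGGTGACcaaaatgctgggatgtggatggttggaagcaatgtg
Z00010132-1: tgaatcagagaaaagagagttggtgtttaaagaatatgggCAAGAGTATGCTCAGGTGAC
It was bright in ZHBTc4 with LIF, with medians of 4.13 and 4.01, against 2.07 and 1.17 in Oct4VP2. There 4 of 5 members were called lower, and the median difference was -2.49. The Oct4 line was also below ZHBTc4 with LIF, at 1.85 and 1.58. No member was called at 48 h or 120 h, when the median differences were -0.69 and -0.31 and ZHBTc4 itself had gone down to 1.63 and 1.99 at 120 h. None was called at 24 h with the session block, without Oct4VP2 24 h replicate 2 or without ZHBTc4 24 h replicate 1, and 1 was called without ZHBTc4 24 h replicate 2.

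The largest family, of 25 probes, separated at 120 h. Of these, 17 were called higher in Oct4VP2 and 3 lower, against 1 and 0 at 24 h and at 48 h. The first pair of sequences below stands for the 16 members that hold the capitals, and the second pair for members that lack them and were called lower.
Z00073033-1: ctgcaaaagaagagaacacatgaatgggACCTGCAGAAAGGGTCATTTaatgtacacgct
Z00073041-1: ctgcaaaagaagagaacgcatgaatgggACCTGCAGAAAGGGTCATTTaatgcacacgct
Z00077293-1: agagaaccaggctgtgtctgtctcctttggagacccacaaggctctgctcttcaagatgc
Z00073029-1: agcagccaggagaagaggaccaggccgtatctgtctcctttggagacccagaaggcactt
Of the 16 members with the shared 20 bases, 12 were called higher and 0 lower at 120 h, with medians of 4.86 and 4.07 in Oct4VP2 against 2.22 and 2.37 in ZHBTc4. With LIF the same members read 6.33 and 4.61 in Oct4VP2 against 5.38 and 5.36 in ZHBTc4, so these lines overlapped. In the Oct4 line these members also stood above ZHBTc4 at 120 h, at 3.76 and 4.6. The 3 members called lower, Z00024383-1 at -3.71, Z00073029-1 at -3.48 and Z00077293-1 at -2.37, were linked to the family through other stretches. The count of called members at 120 h ranged from 3 to 25 under the alternatives, with 3 where both channels had to be above background, a filter that only 3 members passed. The excess of higher calls rested on single arrays: without Oct4VP2 120 h replicate 1 there were 2 higher and 3 lower calls, and within the first scan session 3 and 2. There were 6 and 1 without ZHBTc4 120 h replicate 1, 5 and 2 without ZHBTc4 120 h replicate 2, and 6 and 3 with normexp and loess.

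A second 4-probe family, in which 3 members have identical sequence, gives the size of disagreement between copies of a probe. Capitals mark 20 bases that all 4 share.
Z00070826-1: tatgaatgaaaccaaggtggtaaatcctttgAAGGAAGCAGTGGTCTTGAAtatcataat
Z00027168-1: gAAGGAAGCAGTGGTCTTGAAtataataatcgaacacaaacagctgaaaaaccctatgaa
At 120 h the 3 identical probes, Z00070826-1, Z00072366-1 and Z00072239-1, differed between the lines by 1.31, 1.19 and 1.09, and the fourth, Z00027168-1, by 1.33. All 4 were called higher at 120 h and none at 24 h, where the differences lay between 0.41 and 0.56. Only 1 of the 4 was called with normexp and loess.

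**Figure D4:**
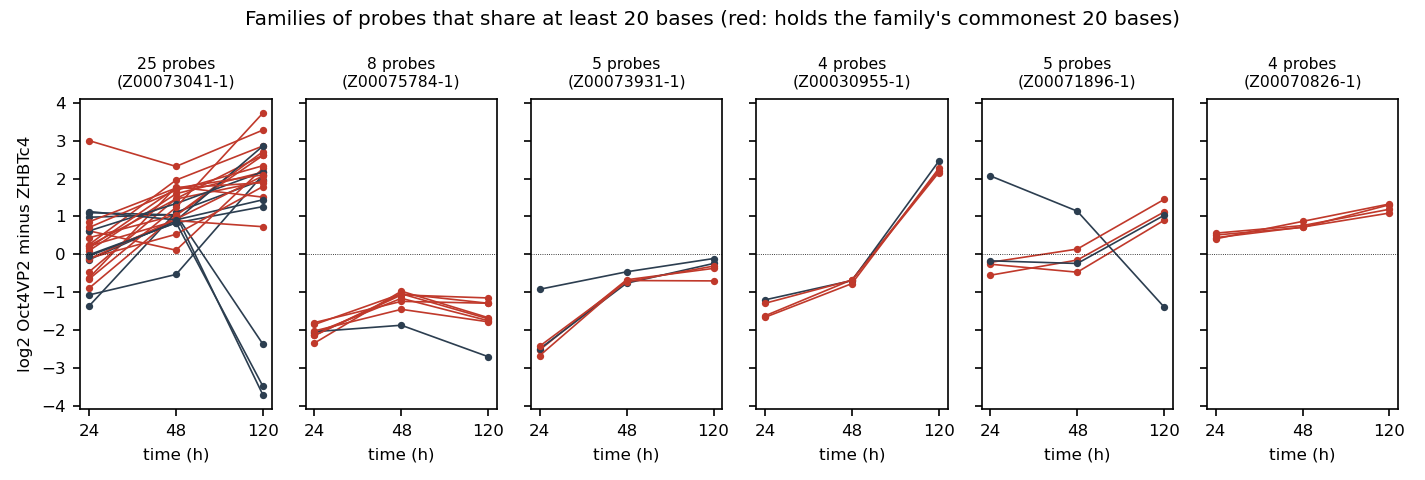
Log2 difference, Oct4VP2 minus ZHBTc4 (vertical axis), at 24, 48 and 120 h for every member of 6 probe families, each named by its first probe; a line is 1 probe, red where it holds the family's commonest 20 bases and dark otherwise. The 8-probe family lies below 0 throughout, and the 4-probe family of Z00030955-1 crosses from below 0 at 24 h to between 2.16 and 2.46 at 120 h.

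A few probes could be placed in the genome. Among the tested probes, 97 matched, over all 60 bases and on the gene's strand, a RefSeq window from 250 bases before to 50 after a gene start (GRCm38.p6), and 95 were followed further, each in 1 window outside chromosome 18. A match gives a position and does not show that the named gene's transcript was measured. Of the 95, 21 were called at 1 time or more, against 25.7% of all tested probes, with 6 higher and 6 lower at 24 h, 2 and 7 at 48 h, and 2 and 2 at 120 h. A pair of overlapping probes lay at the start of Rpl38, which encodes a protein of the large ribosomal subunit. Z00032009-1 (chr11:114668538-114668597, plus strand) was lower in Oct4VP2 by -1.35 at 24 h and -1.35 at 48 h, and its overlapping neighbour Z00075310-1 (chr11:114668526-114668585) by -1.25 at 48 h (adjusted p = 0.0031), with -0.89 at 24 h below the fold threshold. Neither was called at 120 h. Z00056199-1, across the start of Leng1 (chr7:3665794-3665853, minus strand), was lower by -2.79 at 120 h (adjusted p = 3.1e-06). Z00064363-1, upstream of Nedd8, the gene of a ubiquitin-like modifier (chr14:55671967-55672026, minus strand), was higher by 1.05 at 24 h and 1.60 at 120 h (adjusted p = 1.7e-05). Z00060753-1, upstream of Fthl17d, a ferritin heavy chain-like gene (chrX:8986680-8986739, minus strand), was lower by -2.0 at 24 h (adjusted p = 0.0059) and -1.68 at 48 h. The 24 h value of this probe was -0.50 after normexp and loess, under the fold threshold, and its adjusted p was 0.065 without ZHBTc4 24 h replicate 1. These examples were chosen after their values were seen.

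**Figure D5:**
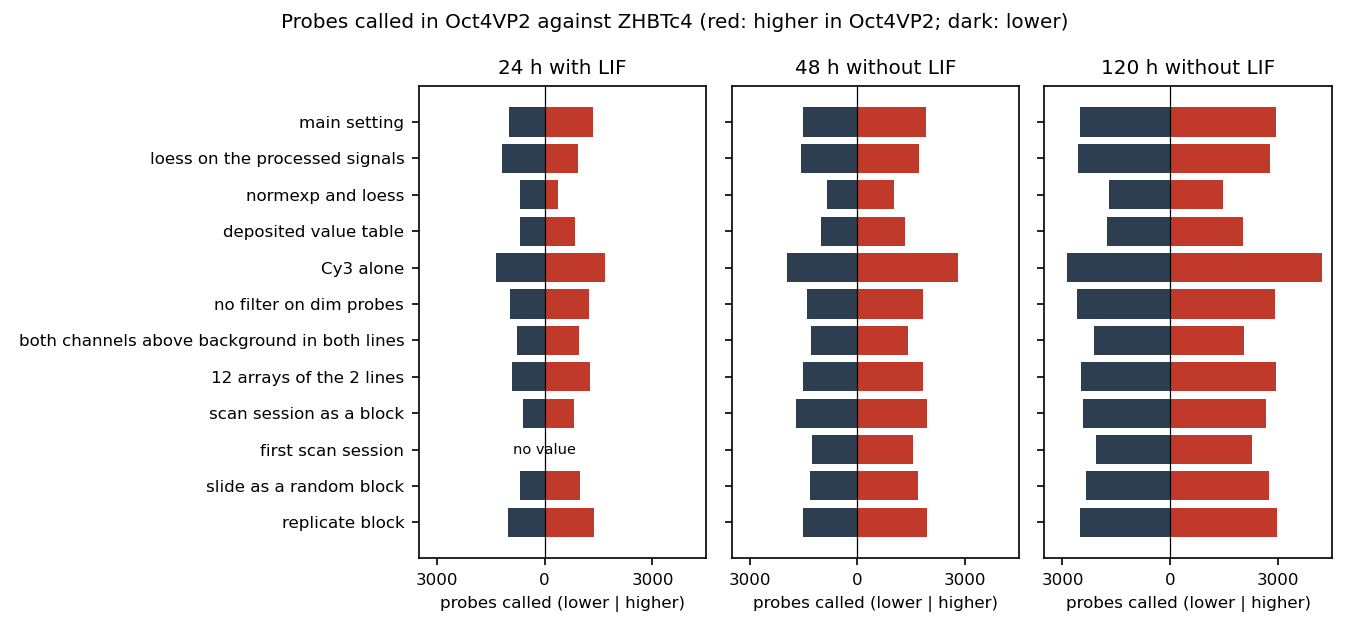
Number of probes called lower (dark, leftwards) and higher (red, rightwards) in Oct4VP2 at each time under the main setting and 11 alternatives. The 24 h panel turns from more higher to more lower calls with both loess settings, the 120 h panel does so with normexp and loess and with both channels above background, and at each time normexp and loess gives the fewest calls.

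The mean share of G and C was 45.1% (SD 8.56) over all tested probes, and lay between 42.7% and 44.8% in the 6 called sets.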

How the data were processed

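Per the file headers, the authors' arrays were read with Agilent Feature Extraction 9.5.1.1, whose deposited processed intensities are background-subtracted and dye-normalised. The deposited value table holds log10 values of 25030 probes, centred per probe by an unstated constant. It served as an alternative. From the intensities, log2 ratios of Cy3 (sample) over Cy5 (reference) were computed with no further scaling, and repeated spots were averaged. limma 3.58.1 in R 4.3.3 fitted the means of all 9 groups over 18 arrays (lmFit, eBayes), with Benjamini-Hochberg adjustment over the 31727 probes for which some group had both arrays well above background in Cy3. A probe was called at an adjusted p under 0.05 and at least 2-fold. The p-values set a difference against the spread between the 2 arrays of a group, described as clones, pooled over all 9 groups. For ZHBTc4 at 48 h and 120 h these 2 arrays also differed in scan session. The fit was tested on simulated data. The text names the 2 probes with the largest called differences in each direction at each time.

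Replicate numbers did not pair the lines, and slide and scan session were taken from the file headers. Gene lists, cell type markers, the octamer in promoters and a mean per gene need gene names for the probes and were not analysed here. The members and lists were chosen with earlier results of these data known. Probe families, detection in 1 line and promoter windows were added after the data were seen. RefSeq promoter windows are those of GRCm38.p6.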

Additional observations from a re-analysis of the deposited data

Results flagged for a closer look

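The difference between the lines itself changed with time, tested as an interaction in limma. It changed for 662 probes from 24 h to 48 h, for 4683 from 24 h to 120 h and for 2844 from 48 h to 120 h. Several leading probes were among them: Z00031143-1 changed by 4.33 from 24 h to 48 h, and Z00018358-1, Z00045087-1 and Z00061870-1 by 3.45, 5.07 and -7.53 from 24 h to 120 h. From 48 h to 120 h, Z00028862-1 changed by -2.85 and Z00073020-1 by -5.62. At 48 h Z00031143-1 was above background in neither line nor the reference, so the size of its change is not measurable. The sizes for Z00028862-1, Z00045087-1, Z00073020-1 and Z00061870-1 are not exact either, since 1 or more of the arrays behind each were at background. For Z00018358-1, ZHBTc4 was at background at both times and the Oct4VP2 arrays overlapped, so a widening could not be measured. The change of Z00061870-1 includes Oct4VP2 120 h replicate 2, the 1 array of 18 on which its reference was well above background. From Cy3 alone its 120 h difference was -3.94. Groups of 2 arrays were too small to look for outlying samples.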

How the results depend on the processing

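Each of the 12 leading results kept its direction and stayed called under the alternatives that could test it, with smaller differences after normexp and loess. The prevailing direction of the calls turned at 24 h with both loess settings and at 120 h with normexp and loess or both channels above background. The cause of the following changes was not tested, apart from the value table, which lists fewer probes. Nor was the part of the normexp offset, which shrinks the log ratios of dim probes. At 24 h, calls numbered 1072 with normexp and loess, 1543 in the value table and 1407 with the session block. Normexp and loess gave 1868 at 48 h, 3159 at 120 h and 247 probes called in 1 direction at all times, for which Cy3 alone gave 838 and the session block 327. Changes from 24 h to 48 h numbered 357 in the value table and with no filter, 1037 with Cy3 alone, 330 with only the 12 arrays and 383 with the session block. The value table gave 3103 changes from 24 h to 120 h and 1870 from 48 h to 120 h, for which the first session gave 960. Leaving out 1 array gave 888 to 1904 calls at 24 h, 2383 to 3049 at 48 h and 4072 to 5510 at 120 h. For changes it gave 47 to 680, 3192 to 4303 and 1798 to 2972, and for all times 223 to 561. The replicate block gave 2400, 3449 and 5482 calls, 700, 4758 and 2883 changes and 521 at all times. Deviations of same-numbered arrays of the lines correlated with r of 0, -0.04 and 0.02, so the numbers did not pair the lines. Within Oct4VP2 the numbers correlated across times with r of 0.28, 0.18 and 0.3, and within ZHBTc4 with -0.05, -0.03 and 0.39. A block by line and number, added after seeing the data, gave 798, 5018 and 3171 changes. Families numbered 18 with 25 shared bases and 11 with 30. Differences of dim probes are limited by signal over background.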
